A study of Mus musculus with 26 samples.

Results

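Entry into and exit from meiotic division is run by a small group of kinases and phosphatases, and the levels of their mRNAs were described in testes of knock-in mice. The group was set by gene name, with earlier results of these data known, and holds 10 genes of the 51124 in the deposited table: *Cdk1*, *Cdk2*, *Cdc25a*, *Cdc25b*, *Cdc25c*, *Wee1*, *Plk1*, *Aurka*, *Aurkb* and *Aurkc*. All 10 were found once each by gene name, and all 10 passed the filter on low values. The total RNA of adult whole testes was sequenced after removal of ribosomal RNA from 2 WT mice (libraries N1 and N2), 2 *10xPerf* mice (N3 and N4) and 2 *10xBulge* mice (N5 and N6), each library from a mouse of its own. Both knock-in lines carry 10 copies of a site for piR-A, a piRNA of pachytene spermatocytes, inserted into the 3′UTR of *Ythdc2*, a gene needed for germ cells to carry out meiosis. In *10xPerf* the sites pair with the piRNA along its whole length. In *10xBulge* they are mismatched at the 10th and 11th piRNA nucleotides, where a PIWI protein would cut. The paper reports that the sites of both lines were nonetheless cut in vivo. The lines were made with Cas9 in embryos of the B6D2F1/J hybrid and kept by crossing homozygotes. No treatment is named, ages beyond adult were not given in the sources used here, and neither was the origin of the WT mice. A genotype is therefore known from 2 mice of 1 line.

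CDK1 bound to cyclin B is the kinase that drives a cell into division, in meiosis as in mitosis. WEE1 holds it back by phosphorylating it, and the CDC25 phosphatases remove that phosphate. PLK1 and Aurora A act at the spindle poles and help to switch CDK1 on, whereas Aurora B and its germ cell relative Aurora C work in the chromosomal passenger complex, which corrects the attachment of chromosomes to the spindle. CDK2 sits on the telomeres of meiotic chromosomes and is required for meiotic prophase. In the testis the divisions take place when spermatocytes at the end of the long prophase become spermatids, and dividing spermatogonia use many of the same genes.

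Promoters of genes of cell division are known for a pair of short motifs, CCAAT and the cell cycle genes homology region (CHR), and these were looked up in the RefSeq promoters on GRCm38.p6, which run from 250 bases before the start of a gene to 50 after it. The table held 7 of the 10 genes, namely *Cdk1*, *Cdk2*, *Cdc25a*, *Cdc25b*, *Plk1*, *Aurka* and *Aurkc*, and *Cdc25c*, *Aurkb* and *Wee1* had no entry. Both strands were searched for CCAAT, for the CHR letters TTTGAA or TTCGAA, and for the cAMP response element TGACGTCA, and no match of a motif overlapped a match of another. CCAAT was found in each of the 7, and in 37.4% of all 32851 promoters of the same length. A CHR match was found in *Cdk1*, with 2 matches, and in *Cdc25b*, *Plk1* and *Aurka*, with 1 each, and in 19.2% of all promoters. The cAMP response element was not found in these 7 windows and was found in 1.79% of all promoters. *Cdk1* is shown because it was the member that passed the test between *10xBulge* and WT, and *Cdc25b* because it passed between *10xBulge* and *10xPerf*. Capitals mark the motif (ATTGG is CCAAT read on the other strand), and each sequence is written on the strand of its gene.
*Cdk1* CHR, chr10:69352968-69352993, reverse strand: gattggctccTTTGAAcgtctacgtg
*Cdk1* CHR, chr10:69352912-69352937, reverse strand: ccgcggcgagTTTGAAactgctggca
*Cdk1* CCAAT, chr10:69352946-69352970, reverse strand: gtgcaatcggATTGGcggatcccgg
*Cdc25b* CCAAT, chr2:131186910-131186934, forward strand: cggcgcccccATTGGtggcgtctgg
In *Cdk1* the motifs shown begin 71, 15 and 48 bases before the start of the gene, and in *Cdc25b* the motif begins 28 bases before it. A further ATTGG of *Cdk1*, 80 bases before the start, stands at the left end of the first sequence. *Cdk2*, *Cdc25a* and *Aurkc*, without a CHR match, had 1, 2 and 1 CCAAT matches. The matches are letters in a window and were not tested for use in these testes.

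The deposited values are normalized read counts per gene, and summed to between 39754103 and 59804251 per library, from roughly 41.1 to 61.6 M reads. At this depth 3 reads were worth between 2.73 and 3.63 normalized counts, so all 10 genes lay far above the limit of counting in every library. Comparisons were made on log2(value + 1) with limma over 23782 genes, p-values were adjusted over all of them by the Benjamini-Hochberg method, and an adjusted p under 0.1 counted as a call. The p-values measure the spread between mice of the same genotype, 2 per group, and an exact permutation test of 2 libraries against 2 cannot go below 0.333. The libraries stood apart in some respects. Across genes, the ratio of the libraries of a genotype moved with GC content (Spearman's rho of 0.631 for N1 over N2, -0.248 for N3 over N4 and 0.522 for N5 over N6), the 18S ribosomal RNA gene *Rn18s* had 2406110 normalized counts in N1 against 24801 to 201129 elsewhere, and spermatid mRNAs were far lower in N5 and N6 than in the other 4. *Ythdc2*, which carries the sites, had 827 and 2412 normalized counts in WT, 1334 and 1136 in *10xPerf* and 1202 and 2458 in *10xBulge*, so that the 3 genotypes overlapped.

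Per kilobase of transcript, the order of the members in WT spanned a wide range. The length of the longest principal GENCODE M21 transcript was used for each gene, or of the longest where none was principal. The order depends on this choice. *Aurka* had the highest mean, with 4304 and 4005 normalized counts per kilobase in N1 and N2, and *Plk1* with 4548 and 2347 overlapped it. *Cdk2* followed with 2252 and 1697. *Cdc25a* (897 and 952) and *Aurkc* (1125 and 688) could not be ordered, nor could *Wee1* (482 and 543), *Cdk1* (516 and 490.2) and *Aurkb* (571 and 336). *Cdc25c* lay below these with 281 and 324, and *Cdc25b* was lowest with 39.2 and 34.4. In *10xBulge* the mean of *Cdk1* was 1031 per kilobase, above that of *Cdc25a* at 767 and *Aurkc* at 752, which had stood above it in WT. Both libraries kept to that order, with 1150 for *Cdk1*, 984 for *Cdc25a* and 957 for *Aurkc* in N5, and 913, 549.6 and 547 in N6.

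**Figure D1:**
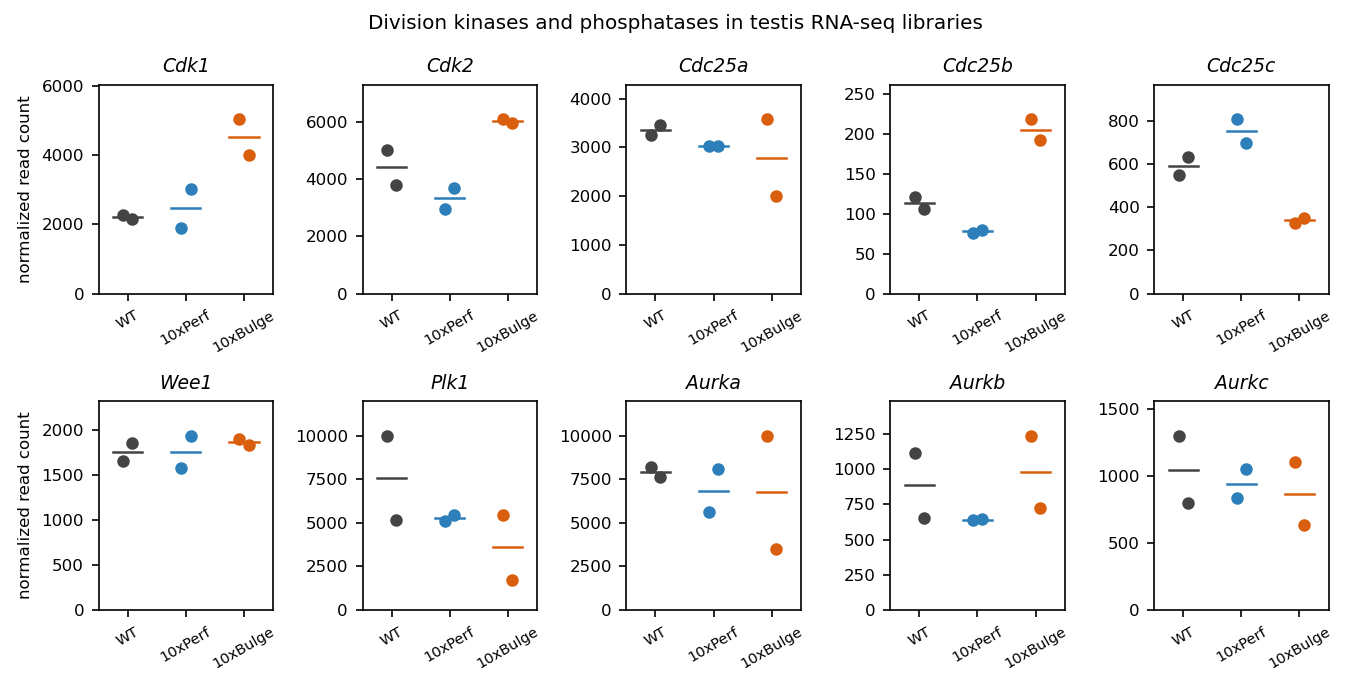
Normalized read counts (vertical axes, each from 0) of the 10 genes in the 6 libraries, by genotype, with points for libraries and a bar for the mean of the 2. *Cdk1*, *Cdk2* and *Cdc25b* were higher in both *10xBulge* libraries than in the other 4, and *Cdc25c* was lower in both. Within *10xBulge*, the points of *Cdc25a*, *Plk1*, *Aurka*, *Aurkb* and *Aurkc* lay wide apart.

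*10xBulge* against WT asks what the mismatched sites go with. Of the 10 genes, 1 rose and 0 fell, where 11.4% of all genes tested rose and 23% fell. At an unadjusted p under 0.05 the counts were the same, 1 and 0. Both libraries lay above both WT libraries for 3 members (*Cdk1*, *Cdk2* and *Cdc25b*), against 28.9% of all genes, and below for 1 (*Cdc25c*), against 33.2%. The median log2 fold change of the members was -0.096, and that of all genes -0.026. The share called among the members was thus no higher than that among all genes.

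*Cdk1* (ENSMUSG00000019942.14, chromosome 10), the kinase of division itself, had 2258 and 2145 normalized counts in WT, 1903 and 3030.3 in *10xPerf*, and 5030.0 and 3993 in *10xBulge*. Both *10xBulge* libraries were higher than each of the other 4, and *10xPerf* spanned the WT values. The mean rose from 2201 ± 79.7 (SD, n = 2) in WT to 4512 ± 733 (SD, n = 2) in *10xBulge*, which is 2.04-fold (log2 fold change 1.03, standard error (SE) 0.40, 95% confidence interval 0.12 to 1.94, limma adjusted p = 0.0938). The call was close to the threshold. Without N1, N2, N3, N4 or N5 the limma adjusted p was 0.21, 0.201, 0.126, 0.126 or 0.238, and without N6 it stayed a call at 0.0989. It was also lost with other filters on low values (limma adjusted p = 0.113 and 0.103), when the third genotype was kept out of the fit (0.122) and without the mean-variance trend (0.137), while the log2 fold change stayed between 0.86 and 1.41 in every setting and with any library left out. Against *10xPerf* the log2 fold change was 0.90 (SE 0.40, 95% interval -0.01 to 1.81, limma adjusted p = 0.128).

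*Cdk2* (ENSMUSG00000025358.17, chromosome 10), the kinase of meiotic prophase, had 5044 and 3801 normalized counts in WT, 2952 and 3715 in *10xPerf*, and 6105 and 5986 in *10xBulge*. The *10xBulge* libraries were again the highest of the 6 and the *10xPerf* libraries the lowest, with no overlap among the 3 genotypes. Neither knock-in line passed the test against WT, with log2 fold changes of 0.47 in *10xBulge* (95% interval -0.41 to 1.34, limma adjusted p = 0.409) and -0.40 in *10xPerf* (95% interval -1.27 to 0.47, limma adjusted p = 0.856). Between the knock-in lines it was 0.87 (SE 0.39, 95% interval -0.0029 to 1.74, limma adjusted p = 0.125). The ratio of *Cdk1* to *Cdk2* inside a library, which no scaling between libraries can change, was 0.448 and 0.564 in WT, 0.645 and 0.816 in *10xPerf*, and 0.824 and 0.667 in *10xBulge*. It was higher in both knock-in lines than in WT, and the lines overlapped each other.

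The CDC25 phosphatases, which remove the inhibiting phosphate from CDK1, went different ways between *10xPerf* and *10xBulge*. *Cdc25b* (ENSMUSG00000027330.17, chromosome 2), usually linked to the first activation of CDK1, had 121 and 106 normalized counts in WT, 75.8 and 80.1 in *10xPerf*, and 218 and 192 in *10xBulge*. The genotypes did not overlap, *10xPerf* being lowest and *10xBulge* highest. *Cdc25b* rose 2.61-fold from *10xPerf* to *10xBulge*, from 78.0 ± 3.04 to 205 ± 18.2 normalized counts (SD, n = 2 each; log2 fold change 1.38, SE 0.42, 95% interval 0.43 to 2.34, limma adjusted p = 0.0382). It stayed a call in all 11 other settings, but not without N3, N4 or N5 (limma adjusted p = 0.183, 0.126 and 0.103). Against WT the log2 fold change was 0.85 in *10xBulge* (95% interval -0.11 to 1.80, limma adjusted p = 0.174) and -0.54 in *10xPerf* (95% interval -1.49 to 0.42, limma adjusted p = 0.853).

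*Cdc25c* (ENSMUSG00000044201.11, chromosome 18), part of the loop by which CDK1 boosts its own activation, had 547 and 629.9 normalized counts in WT, 805 and 695 in *10xPerf*, and 326 and 351 in *10xBulge*. The order of the genotypes was the opposite of that for *Cdc25b*, with *10xPerf* highest, *10xBulge* lowest and no overlap. *Cdc25c* fell from 750.3 ± 78.1 in *10xPerf* to 339 ± 17.2 in *10xBulge* (SD, n = 2 each), to 0.453 of its level (log2 fold change -1.14, SE 0.38, 95% interval -2.002 to -0.28, limma adjusted p = 0.0519). The call was kept at a threshold of 0.1 in the other settings and lost without N3, N4 or N5 (limma adjusted p = 0.245, 0.131 and 0.128). Against WT the log2 fold change was -0.79 in *10xBulge* (95% interval -1.65 to 0.07, limma adjusted p = 0.158) and 0.35 in *10xPerf* (95% interval -0.51 to 1.21, limma adjusted p = 0.864). *Cdc25c* shares chromosome 18 with *Ythdc2*, the edited gene, in lines made in hybrid embryos. The part of this in its values was not tested.

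*Cdc25a* (ENSMUSG00000032477.15, chromosome 9), known for its part at the start of DNA replication and at division, had 3257 and 3457 normalized counts in WT, 3036 and 3023 in *10xPerf*, and 3576 and 1996 in *10xBulge*. The *10xBulge* libraries lay on both sides of the other 4. Its log2 fold change against WT was -0.33 in *10xBulge* (95% interval -1.26 to 0.61, limma adjusted p = 0.601) and -0.15 in *10xPerf*, and its sign in *10xBulge* turned with scaling by library totals, to 0.055.

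Taken inside each library, the balance of *Cdc25c* and *Cdc25b* set the 3 genotypes apart, as follows from the opposite orders of both genes. The ratio of *Cdc25c* to *Cdc25b* in normalized counts, not corrected for length, was 4.52 and 5.93 in WT, 10.6 and 8.68 in *10xPerf*, and 1.497 and 1.82 in *10xBulge*. The mean log2 ratio was 2.37 in WT, 3.26 in *10xPerf* and 0.72 in *10xBulge*. The genotypes did not overlap, and no test was run on the ratio. The ratio of *Cdc25c* to *Cdc25a* was 0.168 and 0.182 in WT, 0.265 and 0.230 in *10xPerf*, and 0.0913 and 0.176 in *10xBulge*, so that *10xPerf* stood above the others while *10xBulge* overlapped WT.

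*Wee1* (ENSMUSG00000031016.10, chromosome 7), the kinase that the phosphatases oppose, varied least among the members. It had 1648 and 1856 normalized counts in WT, 1579 and 1932 in *10xPerf*, and 1896 and 1830.0 in *10xBulge*. All 3 genotypes overlapped, with log2 fold changes of 0.09 in *10xBulge* (95% interval -0.75 to 0.93, limma adjusted p = 0.887) and -0.0023 in *10xPerf* (95% interval -0.84 to 0.84, limma adjusted p = 0.999). These intervals leave room for changes of nearly 2-fold in either direction. The ratio of *Wee1* to *Cdc25c* was 3.01 and 2.95 in WT, 1.96 and 2.78 in *10xPerf*, and 5.81 and 5.22 in *10xBulge*, higher in both *10xBulge* libraries than in the rest.

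**Figure D2:**
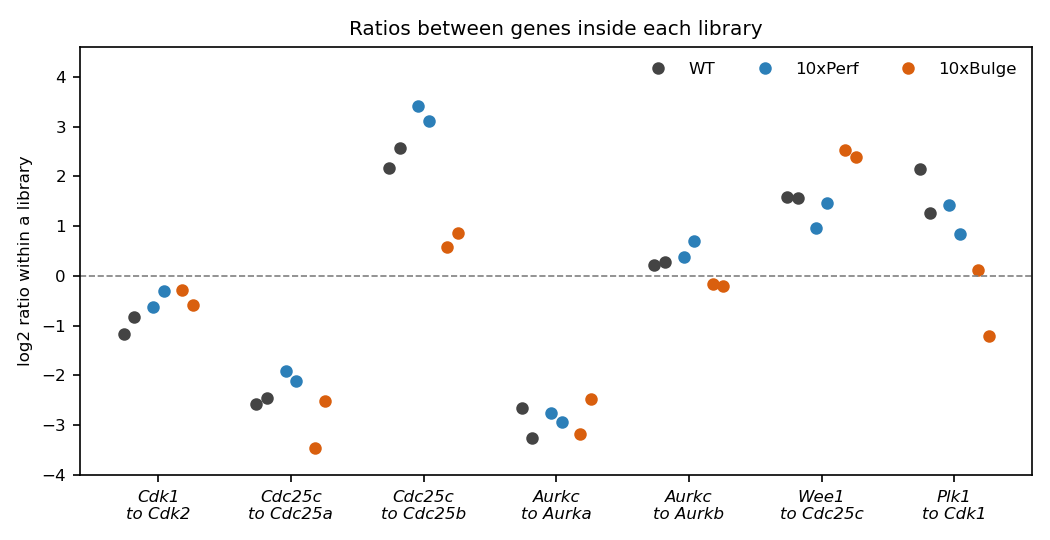
Log2 ratio of normalized counts for 7 pairs of genes inside each library (vertical axis), with a point for each of the 2 libraries of WT, *10xPerf* and *10xBulge* and a dashed line at equal counts. *Cdc25c* to *Cdc25b*, *Aurkc* to *Aurkb* and *Plk1* to *Cdk1* were lower in both *10xBulge* libraries than in the other 4, and *Wee1* to *Cdc25c* was higher.

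*Plk1* (ENSMUSG00000030867.8, chromosome 7), the Polo kinase, had 10001 and 5161 normalized counts in WT, 5139 and 5448 in *10xPerf*, and 5453 and 1727 in *10xBulge*. N1 was high and N6 low, and the other 4 libraries lay within 5139 to 5453. The log2 fold change of *10xBulge* against WT was the largest in size among the members, -1.23, but its interval held 0 (SE 0.58, 95% interval -2.53 to 0.08, limma adjusted p = 0.152). It rested on N6, since the value was -0.40 without it (limma adjusted p = 0.599) and -2.06 without N5 (limma adjusted p = 0.0162). Without N1 it was -0.75 (limma adjusted p = 0.544) and without N2 -1.70 (limma adjusted p = 0.157). *Plk1* has the highest GC content of the members, 55.98% in its transcript, and the trend with GC content moved along with these library differences. With each library's GC trend removed, *Plk1* was called lower in *10xBulge*, by -1.20 against WT (limma adjusted p = 0.0454) and by -1.11 against *10xPerf* (limma adjusted p = 0.0577). Scaling by the upper quartile (limma adjusted p = 0.0901) and a filter of 10 in every library (limma adjusted p = 0.0995) also made it a call against WT. The ratio of *Plk1* to *Cdk1* was 4.43 and 2.41 in WT, 2.70 and 1.80 in *10xPerf*, and 1.08 and 0.433 in *10xBulge*, below the rest in both *10xBulge* libraries.

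None of the Aurora kinases passed the test in any of the 3 comparisons. *Aurka* (ENSMUSG00000027496.16, chromosome 2), the spindle pole kinase, had 8198 and 7629.6 normalized counts in WT, 5604 and 8102 in *10xPerf*, and 10003 and 3514 in *10xBulge*, where N5 was the highest and N6 the lowest of all 6. Its log2 fold change was -0.42 in *10xBulge* against WT (SE 0.53, 95% interval -1.61 to 0.78, limma adjusted p = 0.604) and 0.34 without N6. *Aurkb* (ENSMUSG00000020897.13, chromosome 11), the passenger kinase of all dividing cells, had 1113 and 656 in WT, 636 and 646 in *10xPerf*, and 1236 and 726 in *10xBulge*. The *10xPerf* libraries were the lowest of the 6, and the log2 fold changes were 0.15 in *10xBulge* (95% interval -0.86 to 1.16, limma adjusted p = 0.839) and -0.41 in *10xPerf* (95% interval -1.42 to 0.59, limma adjusted p = 0.864). *Aurkc* (ENSMUSG00000070837.6, chromosome 7), the germ cell kinase, had 1298 and 794 in WT, 831 and 1053 in *10xPerf*, and 1105 and 631 in *10xBulge*. All 3 genotypes overlapped, with a log2 fold change of -0.28 in *10xBulge* (95% interval -1.30 to 0.74, limma adjusted p = 0.688).

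The passenger kinases *Aurkb* and *Aurkc* were also compared inside each library. The ratio of *Aurkc* to *Aurkb* was 1.17 and 1.21 in WT, 1.31 and 1.63 in *10xPerf*, and 0.894 and 0.870 in *10xBulge*. In WT and *10xBulge*, replicates that differed by 0.71 to 0.81 on the log2 scale in the levels of each gene differed little in the ratio. In *10xPerf* the log2 ratio was 0.38 in N3 and 0.70 in N4, a wider gap than that in the level of *Aurkb*, with 636 and 646 normalized counts. The genotypes did not overlap, and *10xBulge* was the one in which *Aurkb* had more counts than *Aurkc*, without correction for length. Per kilobase of transcript *Aurkc* was above *Aurkb* in every library, with 957 against 634 in N5 and 547 against 372 in N6. The ratio of *Aurkc* to *Aurka* was 0.158 and 0.104 in WT, 0.148 and 0.130 in *10xPerf*, and 0.110 and 0.180 in *10xBulge*, and the genotypes overlapped.

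**Figure D3:**
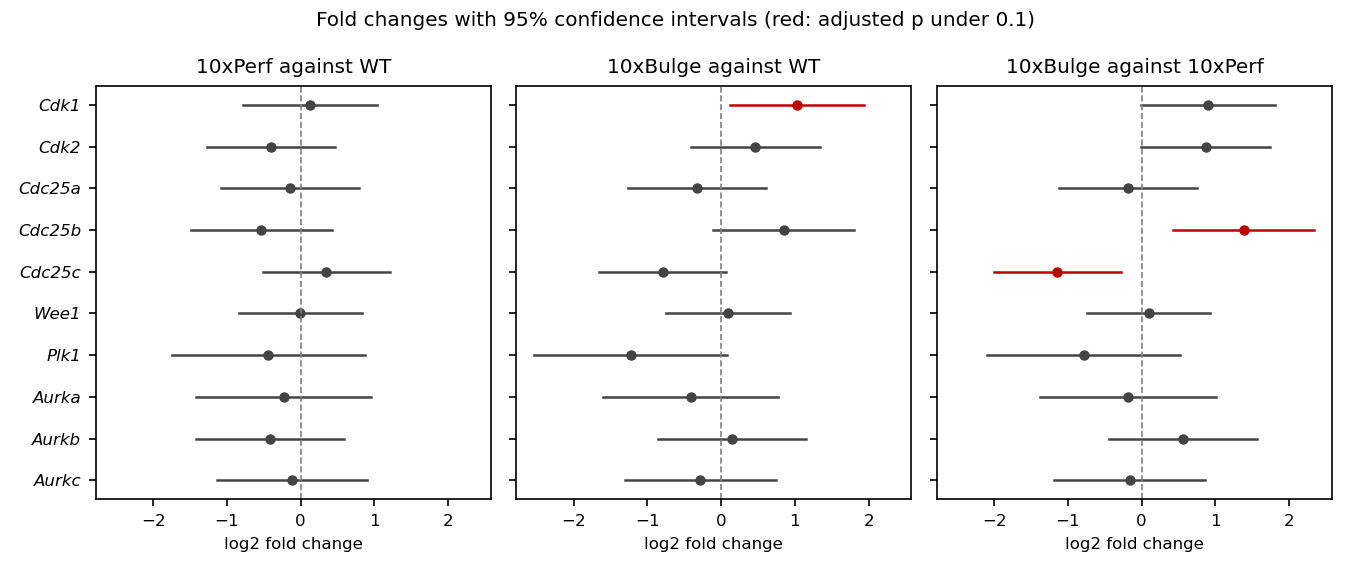
Log2 fold changes (horizontal axes) with 95% intervals from limma for the 10 genes in the 3 comparisons, in red where the adjusted p was under 0.1. The red points are *Cdk1* in *10xBulge* against WT (1.03) and *Cdc25b* (1.38) and *Cdc25c* (-1.14) in *10xBulge* against *10xPerf*.

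*10xBulge* against *10xPerf* sets the mismatched against the paired sites. Of the 10 genes 1 rose (*Cdc25b*) and 1 fell (*Cdc25c*), where 12.9% of all genes tested rose and 24.1% fell. Both libraries lay above for 4 (*Cdk1*, *Cdk2*, *Cdc25b* and *Aurkb*), against 30.7% of all genes, and below for 1 (*Cdc25c*), against 35.3%. The median log2 fold change of the members was -0.035 and that of all genes -0.067. *Aurkb* had a log2 fold change of 0.56 (limma adjusted p = 0.383), *Plk1* of -0.79 (limma adjusted p = 0.345), and *Wee1*, *Cdc25a*, *Aurka* and *Aurkc* lay between -0.18 and 0.09. This comparison shares its *10xBulge* libraries with that against WT, so the 2 are not separate evidence.

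*10xPerf* against WT gave 0 calls among the members in either direction by limma, and 0 at an unadjusted p under 0.05. Few genes were called at all, 0.467% higher and 0.492% lower. The lowest limma adjusted p among the members was 0.853, for *Cdc25b*. The log2 fold changes ran from -0.54 for *Cdc25b* to 0.35 for *Cdc25c*, with a median of -0.19 against 0.018 for all genes. Both libraries lay above WT for 1 member (*Cdc25c*), against 20.2% of all genes, and below for 4 (*Cdk2*, *Cdc25a*, *Cdc25b* and *Aurkb*), against 19.8%. The 95% intervals were narrowest for *Wee1* (-0.84 to 0.84) and widest for *Plk1* (-1.75 to 0.87). With 2 libraries per genotype, each interval leaves room for any change inside it.

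Other genes of the division pathway were read from 3 lists, chosen with earlier results of these data known. Of 21 partners and regulators of the cyclin-dependent kinases, 3 rose and 0 fell in *10xBulge* against WT, with a median log2 fold change of 0.33, where 11.4% of all genes tested rose and 23% fell. Over the 3 lists 6 of 52 genes rose, a share near that of all genes, and 1 fell. *Ccna2*, the A-type cyclin of mitotic cells, had 244 and 369 normalized counts in WT, 503 and 637 in *10xPerf* and 882 and 805 in *10xBulge*, and rose by 1.49 on the log2 scale against WT (SE 0.41, limma adjusted p = 0.0261). Its 3 genotypes stood apart in that order, and the call was lost without N1 (limma adjusted p = 0.146). *Cdkn1b*, which encodes the inhibitor p27, had 713 and 784 in WT, 687 and 921 in *10xPerf*, and 1759.9 and 1562 in *10xBulge* (log2 fold change 1.15, limma adjusted p = 0.0555). *Cdk7*, the kinase that primes CDK1 by phosphorylating its activation loop, had 437 and 804 in WT, 744 and 1000.05 in *10xPerf*, and 1479.8 and 1167 in *10xBulge* (log2 fold change 1.15, limma adjusted p = 0.0867). The call of *Cdkn1b* was lost without N1, N2 or N5 (limma adjusted p = 0.173, 0.105 and 0.142), and that of *Cdk7* without N1, N3, N4 or N5 (0.356, 0.149, 0.15 and 0.222), where the log2 fold change without N1 was 0.71. Over the 11 other settings the call of *Ccna2* held in 11, that of *Cdkn1b* in 10 and that of *Cdk7* in 7, with limma adjusted p-values of 0.0241 to 0.148 for *Cdk7*.

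The B-type cyclins, partners of CDK1 in division, did not pass. *Ccnb1* had a log2 fold change of 0.14 in *10xBulge* against WT (limma adjusted p = 0.846) and *Ccnb2* of 0.17 (limma adjusted p = 0.776), and *Pkmyt1*, a relative of *Wee1*, had -0.18 (limma adjusted p = 0.754). *Ccna1*, the A-type cyclin of male germ cells, had 7219.8 and 5442 normalized counts in WT and 5121 and 1979 in *10xBulge* (log2 fold change -0.98, limma adjusted p = 0.186). These 4 genes were picked for their roles after their values had been seen.

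Of 15 partners and relatives of the Aurora and Polo kinases, 0 were called in *10xBulge* against WT by limma, 0 at an unadjusted p under 0.05, with a median log2 fold change of 0.18. Their values ran from -1.01 for *Haspin*, the histone kinase that helps to recruit the passenger complex, to 1.07 for *Melk*. Of 16 regulators of the spindle checkpoint and the anaphase-promoting complex, 3 rose and 1 fell, with a median of 0.33, beside the same 11.4% and 23% of all genes. *Bub3*, a checkpoint protein, had 2707 and 2158 normalized counts in WT, 1783 and 2967 in *10xPerf*, and 8399 and 4925 in *10xBulge* (log2 fold change 1.41, SE 0.45, limma adjusted p = 0.0467). *Mad2l1*, which encodes the checkpoint inhibitor MAD2, had 587 and 607 in WT, 1214 and 676 in *10xPerf*, and 1164 and 3572 in *10xBulge* (log2 fold change 1.77, SE 0.56, limma adjusted p = 0.047). *Fbxo5*, an inhibitor of the anaphase-promoting complex, had 52.2 and 71.1 in WT, 100.4 and 85.5 in *10xPerf*, and 148 and 217 in *10xBulge* (log2 fold change 1.54, SE 0.46, limma adjusted p = 0.0375). *Fzr1*, an activator of that complex, fell by 1.36 on the log2 scale (SE 0.53, limma adjusted p = 0.0901), from 13607 and 7159 in WT to 5945 and 2480.4 in *10xBulge*, and had 5709 and 7484 in *10xPerf*. Both *10xPerf* libraries lay above WT for *Mad2l1* and *Fbxo5*, and for *Mad2l1* and *Fzr1* the knock-in lines overlapped. Without N1 all 4 calls were lost, with limma adjusted p-values of 0.128, 0.208, 0.193 and 0.398. Those of *Bub3* were also lost without N2 or N5 (0.169 and 0.175), of *Mad2l1* without N2, N3, N4 or N6 (0.163, 0.107, 0.108 and 0.197), of *Fbxo5* without N6 (0.113) and of *Fzr1* without N3, N4 or N6 (0.18, 0.182 and 0.325). Over the 11 other settings *Bub3* and *Fbxo5* stayed calls in 11, *Mad2l1* in 9 (limma adjusted p = 0.00483 to 0.106) and *Fzr1* in 5 (limma adjusted p = 0.0235 to 0.178). The log2 fold change of *Mad2l1* was 0.96 without N6, and that of *Fzr1* was -0.90 without N1 and -0.73 without N6.

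**Figure D4:**
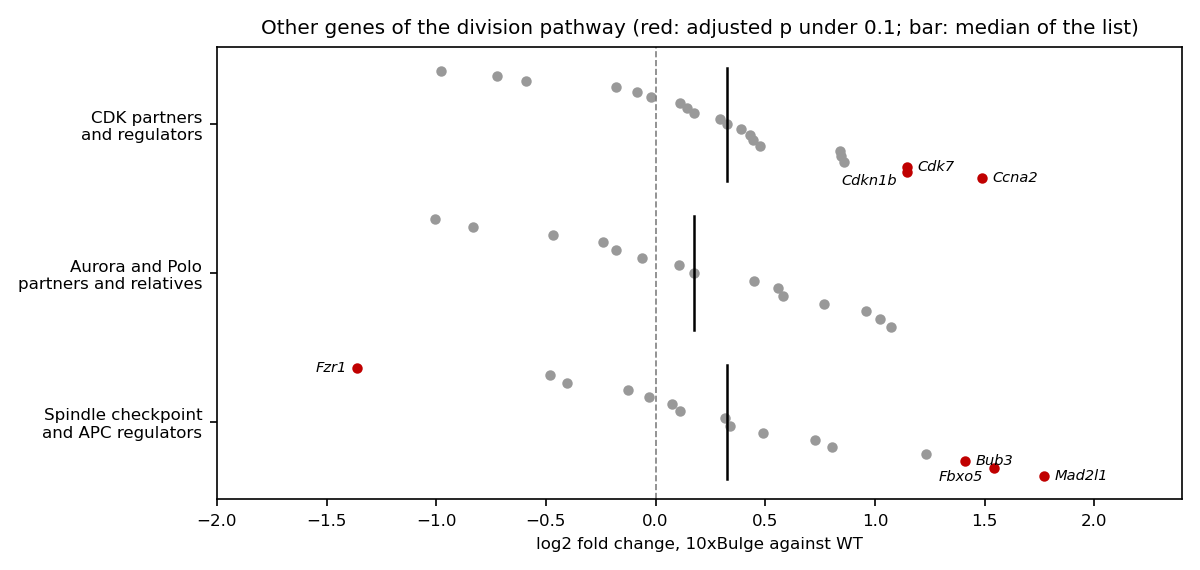
Log2 fold change in *10xBulge* against WT (horizontal axis) of the 52 other pathway genes in 3 lists, with a point per gene, red where limma's adjusted p was under 0.1, and a black bar at the median of the list. The red points are 6 genes that rose and *Fzr1*, which fell, and the medians lie at 0.33, 0.18 and 0.33.

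In *10xPerf* against WT 0 of these 52 genes were called by limma, 0 at an unadjusted p under 0.05, with a median of 0.21. In *10xBulge* against *10xPerf* 3 rose and 1 fell, both smaller shares than the 12.9% and 24.1% of all genes. These were *Cdkn1b* (1.06, limma adjusted p = 0.0676), *Bub3* (1.48, limma adjusted p = 0.0363), *Cdkn1a*, which encodes the inhibitor p21 (1.15, limma adjusted p = 0.0813), and *Haspin* (-1.31, limma adjusted p = 0.0894). The last 2 were named after their values were seen. The call of *Cdkn1b* was lost without N3, N4 or N5 (limma adjusted p = 0.319, 0.118 and 0.174) and that of *Bub3* without N3 or N5 (0.282 and 0.149). Over the 11 other settings *Cdkn1b* stayed a call in 9 and *Bub3* in 11.

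Levels in a whole testis also follow its makeup, and in such samples fewer cells of a type and less RNA per cell cannot be told apart. The counts of markers below are for *10xBulge* against WT unless stated, where 11.4% of all genes tested rose and 23% fell. All 14 spermatid markers fell. Their summed level was 635744 to 878035 normalized counts in WT, 756736 to 831001 in *10xPerf* and 1785 to 3547 in *10xBulge*. None of them was at 0. Of 15 spermatocyte markers 1 rose and 0 fell, and their sums overlapped, 36412 to 67672 in WT, 58926 to 73122 in *10xPerf* and 58207 to 62192 in *10xBulge*, with *Sycp1*, *Sycp3* and the other defining genes above 0 in every library. Of 12 spermatogonial markers 11 were tested, of which 1 rose and 1 fell, and the sums were 11666 to 14517 in WT, 7618 to 11945 in *10xPerf* and 20825 to 24941 in *10xBulge*. *Nanos2*, which marks spermatogonial stem cells, was at 0 in N1, N4 and N6. Of 10 Sertoli markers 5 rose and 0 fell (sums of 85990 to 86322 in WT, 61197 to 86716 in *10xPerf* and 134045 to 284230 in *10xBulge*), of 8 Leydig markers 5 rose and 0 fell (55739 to 77655, 47016 to 83405 and 150750 to 314663), and of 6 macrophage markers 5 rose and 0 fell (2536 to 3447, 3383 to 4812 and 7077 to 11156). Of 9 proliferation genes 2 rose and 0 fell (14918 to 23842, 20847 to 25529 and 31183 to 31929). *10xBulge* thus lay above the other genotypes in the sums of all but the spermatid and spermatocyte lists, as did *Cdk1*, *Cdk2* and *Cdc25b*. By the median log2 level the spermatogonial list overlapped, with 9.23 in N6 against 9.33 in N2 and 9.32 in N4. By the same measure the spermatocyte list in *10xBulge* (10.82 and 11.41) overlapped WT (10.99 and 12.00) and lay below *10xPerf* (12.09 and 11.80). Against *10xPerf*, 0 of the 15 spermatocyte markers rose and 2 fell, where 12.9% of all genes rose and 24.1% fell. The part of these lists in the results was not tested.

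**Figure D5:**
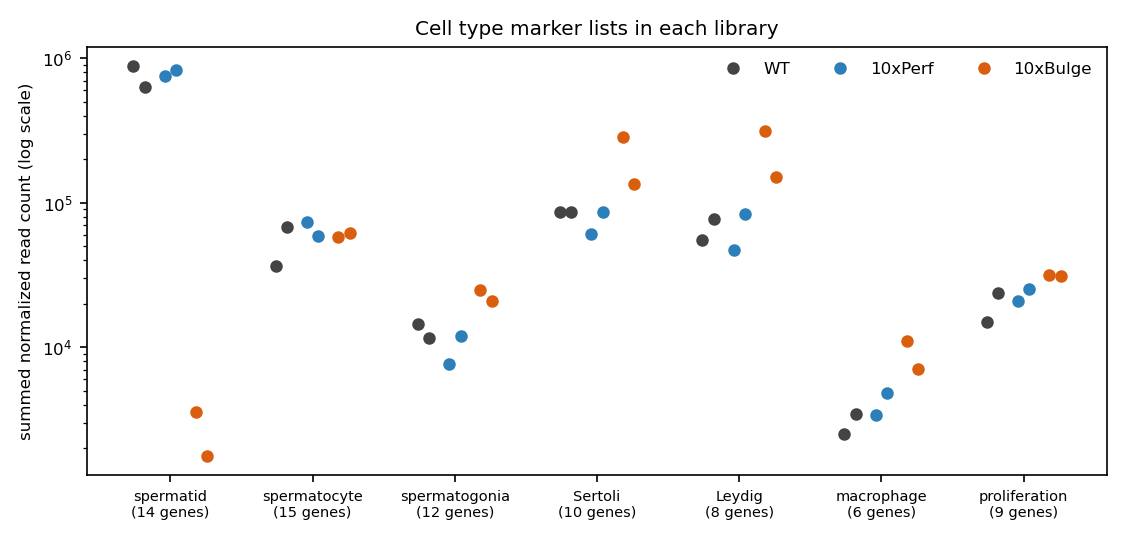
Summed normalized counts (vertical axis, log scale) of 7 lists of cell type markers in each library, with 2 points for each genotype. The spermatid sums of *10xBulge*, 1785 and 3547, lie far below the rest, the spermatocyte sums overlap, and the other 5 lists are highest in *10xBulge*.

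The log2 level of a member can also be set against the median log2 level of a marker list in the same library, as a description. Relative to the spermatocyte list *Cdk1* was higher in *10xBulge*, by 1.47 and 0.55, than in WT, by 0.15 and -0.94, or in *10xPerf*, by -1.20 and -0.23. The median of that list was itself lower in *10xBulge* than in *10xPerf*, and overlapped WT. Its genes ran from 34.6% GC (*Sycp1*) to 55.6% (*Msh5*), against 47.8% for *Cdk1*. The part of the GC trend in these differences was not tested. Relative to the proliferation genes the values of *Cdk1* overlapped, with 0.96 and 0.86 in WT and 0.74 and 1.09 in *10xBulge*, and they did so relative to the spermatogonial and Sertoli lists. *Cdc25b* was likewise above WT in *10xBulge* relative to the spermatocyte list and overlapped relative to the other 3. *Cdk2* in *10xBulge* overlapped WT relative to the spermatocyte and spermatogonial lists, and was below WT relative to the Sertoli list and to the proliferation genes (2.12 and 1.68 in WT, 1.02 and 1.67 in *10xBulge*). *Cdc25c* and *Plk1* were lower in *10xBulge* than in WT and *10xPerf* relative to the spermatogonial, Sertoli and proliferation lists. For *Cdc25c* the difference from the proliferation genes was -1.09 and -0.91 in WT and -3.20 and -2.41 in *10xBulge*, and for *Plk1* it was 3.10 and 2.13 in WT and 0.86 and -0.12 in *10xBulge*. Relative to the spermatocyte list both overlapped WT. *Cdc25c* was there below *10xPerf*, narrowly, with -2.47 and -2.95 in *10xBulge* and -2.44 and -2.36 in *10xPerf*.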

How the data were processed

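The reads were quantified by the authors with salmon, with correction for GC bias, against Ensembl transcripts of GRCm39. The deposited signal is the normalized read count that DESeq2 gives for a gene in each library, and these values are not whole reads. The mean over all libraries and, for each line against WT, log2 fold changes with adjusted p-values were also deposited. The comparison columns were not used. All sample columns were matched to libraries. The MILI and MIWI immunoprecipitation libraries are not analysed here.

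A gene was tested if 2 or more libraries reached 10, which left 23782 genes. The fit used limma 3.58.1 (R 4.3.3) on log2(value + 1), all 6 libraries and a mean-variance trend, a scale that understates the change of low genes. The design allowed for a count test, which was not run because the values are not counts. Transcript lengths and GC content came from GENCODE M21 on GRCm38, by the longest principal transcript or else the longest, for 99.3% of tested genes. Floors and read numbers cover counting error only. Named are all members, *Ythdc2*, and from each pathway list up to 3 called genes per direction in *10xBulge* against WT, by p, with exceptions stated. The members and lists were chosen with earlier results of these data known. The fit was tested on simulated data with changes larger than those of the members, so this check does not cover changes of their size. Alternatives were other scalings, filters, pseudocounts, thresholds, variance models, a loess GC correction (span 0.3) and leaving out each library. Other steps ran in Python 3.11.15 with scipy 1.17.1, and figures in matplotlib 3.10.9.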

Additional observations from a re-analysis of the deposited data

How the results depend on the processing

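With 1 member called higher in *10xBulge* against WT, the count was 3 with library totals (*Cdk1*, *Cdk2* and *Cdc25b*), and 0 with a filter of 1 in 1 library, with 10 in every library, with only the 2 genotypes compared, without the mean-variance trend and at an adjusted p under 0.05 (0 to 1 when each library was left out). The count called lower, 0, became 1 with the upper quartile, 1 with 10 in every library and 2 with the GC trend removed (*Cdc25c* and *Plk1*; 0 to 1). In *10xBulge* against *10xPerf* the 1 called higher became 3 under library totals and also 3 after removal of the GC trend (*Cdk1*, *Cdk2* and *Cdc25b* both times; 0 to 1), and the 1 called lower became 2 with the GC trend removed (*Plk1* added) and 0 at an adjusted p under 0.05 (0 to 1). The other settings kept these counts, and that of 0 in *10xPerf* against WT was kept in all. The causes were not tested. The share of all genes called was worked out for the main setting only, so the counts under other settings have no such share beside them. Among pathway genes, the 6 higher in *10xBulge* against WT ranged from 4 to 13 over the settings and from 0 to 7 with a library left out, and the 1 lower from 0 to 4 in both. Against *10xPerf* the 3 higher ranged from 1 to 9 and 0 to 3, and the 1 lower from 0 to 5 and 0 to 4.

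Under library totals the median of all log2 fold changes went to 0.36 in *10xBulge* against WT, 0.15 in *10xPerf* against WT and 0.18 between the lines, and the upper quartile moved it to -0.16 and -0.18 in both *10xBulge* comparisons. A filter of 10 in every library, which drops genes low in *10xBulge*, gave 0.15 and 0.13. With library totals the sign turned in *10xPerf* against WT for *Wee1* (0.13), *Aurkc* (0.016) and *Bub3* (0.063), in *10xBulge* against WT for *Cdc25a* (0.055) and *Aurkc* (0.10), and in *10xBulge* against *10xPerf* for *Cdc25a* (0.068), *Aurka* (0.065) and *Aurkc* (0.086). With the upper quartile it turned for *Wee1* in *10xBulge* against WT (-0.050) and against *10xPerf* (-0.01926). With the GC trend removed it turned in *10xPerf* against WT for *Cdk1* (-0.02328) and *Cdkn1b* (-0.20). None of these was a call.

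With a library left out, signs turned for values that were not called. The log2 fold changes of *10xPerf* against WT then ran from -0.21 to 0.46 for *Cdk1*, -0.15 to 0.14 for *Wee1*, -0.92 to 0.036 for *Plk1*, -0.50 to 0.035 for *Aurka*, -0.47 to 0.24 for *Aurkc*, -0.12 to 0.30 for *Cdkn1b* and -0.44 to 0.30 for *Bub3*. Those of *10xBulge* against WT ran from -0.75 to 0.092 for *Cdc25a*, -1.17 to 0.34 for *Aurka*, -0.24 to 0.53 for *Aurkb* and -0.68 to 0.12 for *Aurkc*. Those of *10xBulge* against *10xPerf* ran from -0.60 to 0.24 for *Cdc25a*, -0.053 to 0.24 for *Wee1*, -1.62 to 0.043 for *Plk1*, -0.94 to 0.57 for *Aurka* and -0.57 to 0.24 for *Aurkc*. In these fits a genotype left with 1 library is assumed to vary like the others. No paired analysis was possible because the libraries are numbered from 1 to 6 across the genotypes, which therefore share no replicate number. Count tests were not run on these normalized values. With 2 libraries per genotype, a value whose interval holds 0 is not shown to be unchanged.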
